A study of Mus musculus with 20 samples.

Results

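The genes described here are 35 genes of cholesterol handling in mouse liver, chosen by name and by role. The deposited table holds 46095 gene symbols, and 26350 of these have a count in some library. They comprise 8 genes of the mevalonate pathway, 11 of sterol synthesis, 4 that control synthesis, 5 of uptake and intracellular transport, 3 of esterification and 4 of efflux. All 35 were in the table, all 35 passed the filter on low counts, and all 35 were tested. RNA sequencing was carried out on livers of 20 mice aged 31 to 33 weeks, in 4 groups of 5. Mice labelled WT were fed a chow diet for 24 weeks (WT chow) or a NASH diet for 24 weeks (WT NASH), a diet used to induce non-alcoholic steatohepatitis. Mice labelled Pck1-cKO, in which Pck1 was knocked out in the liver only per the series title, were fed chow (KO chow) or the NASH diet (KO NASH) for the same time. Pck1 encodes the cytosolic phosphoenolpyruvate carboxykinase of gluconeogenesis. The labels do not name the Cre driver, the composition of the NASH diet, or the feeding state and hour at which livers were taken. The comparisons asked what the diet, the loss of Pck1 and both together did to liver gene expression.

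As background, cholesterol is built from acetyl-CoA in the mevalonate pathway, which ends in farnesyl pyrophosphate, and in the sterol branch, which turns squalene into cholesterol. The transcription factor SREBP-2, the product of Srebf2, activates most of these genes when the endoplasmic reticulum is poor in sterol, because Scap then escorts it to the Golgi for cleavage. Insig1 and Insig2 encode anchors that hold Scap back when sterol is plentiful, and Insig1 is itself a target of SREBP-2. Excess sterol activates the nuclear receptor LXR, which raises the efflux transporters Abca1, Abcg1, Abcg5 and Abcg8 in many tissues. The liver is the main organ of the body that both makes cholesterol and removes it into bile.

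Library totals ran from 9958935 to 20601955 counts, so that before TMM scaling a CPM of 1 (counts scaled to a common library total) stood for 9.96 to 20.6 reads. Levels below are CPM after TMM scaling, where each total is also multiplied by a factor of 0.683 to 1.32, so this range does not convert them exactly. They are given as mean ± SD (n = 5 libraries) unless each library is listed. Within the gene list counts went from 1 (Mvd in WT chow replicate 4) to 17682 (Insig2). The hepatocyte markers (10 genes, Alb among them) summed to 55700 to 140000 CPM in every library. Pck1, which checks the genotype labels, was lower in KO on both diets, with log2 fold changes of -2.51 (edgeR adjusted p = 0.00011) and -2.36 (edgeR adjusted p = 6.13e-05), and from counts by gene it cannot be seen if the reads left cover the deleted part. The groups were unequal in 2 respects that the labels do not state. By Y-linked counts all 5 WT chow mice were read as male and all WT NASH mice but replicate 4 as female. The females among the KO mice were replicates 3 and 5 on chow and replicate 2 on the NASH diet. The length slope of a library is the slope, on log2 exonic length, of each gene's deviation from its mean over the 20 libraries. It was negative in 6 libraries (WT chow replicates 3, 4 and 5, WT NASH replicate 4, KO chow replicates 4 and 5) and positive in the other 14. Its sign is thus relative to the average of the 20 libraries. KO NASH replicates 1 and 5 were the most alike pair of any group (chi-square per degree of freedom 8.57, the next lowest being 24.1). They differed beyond the sampling noise of counts, which cannot show that they came from 2 animals. They were counted as 2 mice because the labels give separate mice.

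In wild-type liver on chow the list covered a wide span of levels per length, here CPM per kilobase of exonic sequence. Lcat, which encodes the plasma enzyme that esterifies cholesterol on lipoproteins, was highest at 206 CPM per kilobase, followed by Insig2 at 167, Ebp (a sterol isomerase) at 67.1, Sc5d (a sterol desaturase) at 52.9 and Abcg5 at 47.0. The synthesis enzymes Mvd at 0.549, Idi1 at 0.68 and Sqle at 0.752 CPM per kilobase were among the 4 lowest, together with Soat1 at 0.688. On the NASH diet Hmgcs1 ranked 4th of the 35 in WT at 86.5 CPM per kilobase, against rank 16 and 7.53 CPM per kilobase on chow. These per-length values are levels, with no test between genes. In bulk liver, fewer cells of a type and less RNA per cell cannot be told apart.

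**Figure D1:**
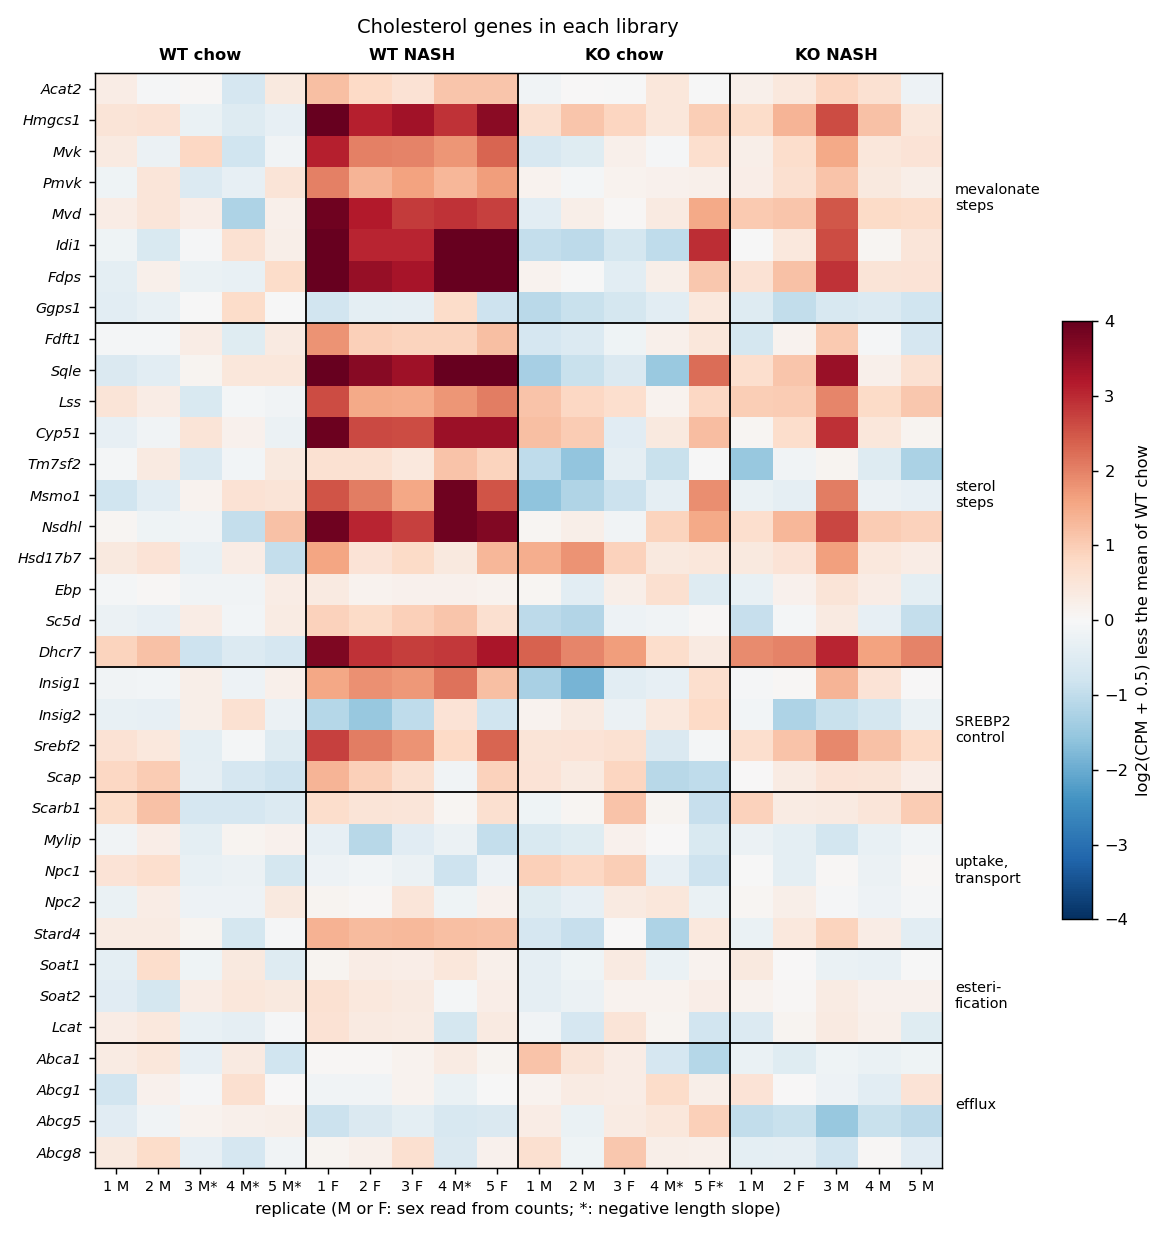
Each row is 1 of the 35 genes, ordered by role, and each column 1 of the 20 libraries by group; colour gives log2(CPM + 0.5) less the mean of the WT chow libraries, with the scale ending at 4 on either side. The upper rows, which are the synthesis enzymes, are high in all 5 WT NASH libraries and in KO NASH replicate 3, and lower in the other KO NASH libraries.

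Most enzymes of cholesterol synthesis, 14 of 19, were higher in WT liver on the NASH diet than on chow, in groups that also differed in sex. In WT NASH against WT chow 17 of the 35 genes were called higher and 0 lower by edgeR at an adjusted p under 0.05. Of all 14440 genes tested 5.93% were called in this comparison, with 2.69% called higher and 3.24% lower. The median log2 fold change was 0.91 over the 35 genes and 0.01 over all genes. In 19 of the 35 genes every WT NASH library lay above every WT chow library, as in 2.9% of all genes tested, and in 0 every one lay below (3.25% of all genes).

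Of the 8 mevalonate genes 7 rose, with a median log2 fold change of 2.97 over the 8. Hmgcs1, the cytosolic HMG-CoA synthase, was at 47.3, 49.5, 27.2, 22.9 and 26.1 CPM in WT chow replicates 1 to 5. In WT NASH replicates 1 to 5 it was at 705, 288, 340, 249 and 405 CPM. The lowest NASH library thus lay above the highest chow library, and the rise was 3.52 on the log2 scale with an SE of 0.402 (edgeR adjusted p = 4.78e-05). Fdps, which makes farnesyl pyrophosphate, went from 5.92, 9.10, 6.37, 6.36 and 13.4 CPM to 208, 92.1, 81.8, 154 and 136 CPM in the same order. Its groups did not overlap either, and the ratio of means was 16.4 (log2 fold change 4.03 with an SE of 0.489 and an edgeR adjusted p of 8.55e-05). The other 5 were Idi1, the isopentenyl diphosphate isomerase (2.38 ± 0.907 to 53.1 ± 39.9 CPM, log2 fold change 4.49), Mvd, the mevalonate decarboxylase (1.02 ± 0.534 to 12.1 ± 4.76 CPM, 3.54), Mvk and Pmvk, the kinases that act on mevalonate before Mvd (2.42 and 1.62), and Acat2, a thiolase (0.95). Ggps1, which diverts farnesyl pyrophosphate to geranylgeranyl pyrophosphate and away from sterols, was not called, at 21 ± 7.56 and 17.6 ± 9.46 CPM.

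Of the 11 sterol genes 7 rose, 0 fell, and all 11 had positive log2 fold changes, with a median of 1.94. Nsdhl, a sterol dehydrogenase of C4 demethylation, was at 5.33, 4.39, 4.58, 2.37 and 12.1 CPM in WT chow and at 81.5, 45.1, 36.3, 81.4 and 72.4 CPM in WT NASH. Its lowest NASH library was above its highest chow library, and the edgeR adjusted p was 0.000361 (log2 fold change 3.45, SE 0.482). Sqle, the squalene epoxidase that commits squalene to sterols, had the largest change of the branch, with means of 4.17 ± 1.47 and 84.6 ± 31.8 CPM (edgeR adjusted p = 0.00379, log2 fold change 4.35, SE 0.822). Cyp51, the lanosterol demethylase, rose from 19.6 ± 5.07 to 192 ± 74.7 CPM (log2 fold change 3.29), and Dhcr7, the 7-dehydrocholesterol reductase, from 9.37 ± 6.53 to 72.9 ± 22.6 CPM (2.95). Msmo1, a methyl sterol oxidase, Lss, the lanosterol synthase, and Fdft1, the squalene synthase, had log2 fold changes of 2.66, 1.94 and 1.17. Sc5d and Tm7sf2 were not called, although their 5 NASH libraries lay above their 5 chow libraries, with Sc5d at 257 ± 55.7 and 468 ± 55.4 CPM (log2 fold change 0.86, edgeR adjusted p = 0.0689). Hsd17b7 and Ebp, whose groups overlapped, were not called either. Ebp, already high on chow, was at 155 ± 20 and 177 ± 12.1 CPM.

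**Figure D2:**
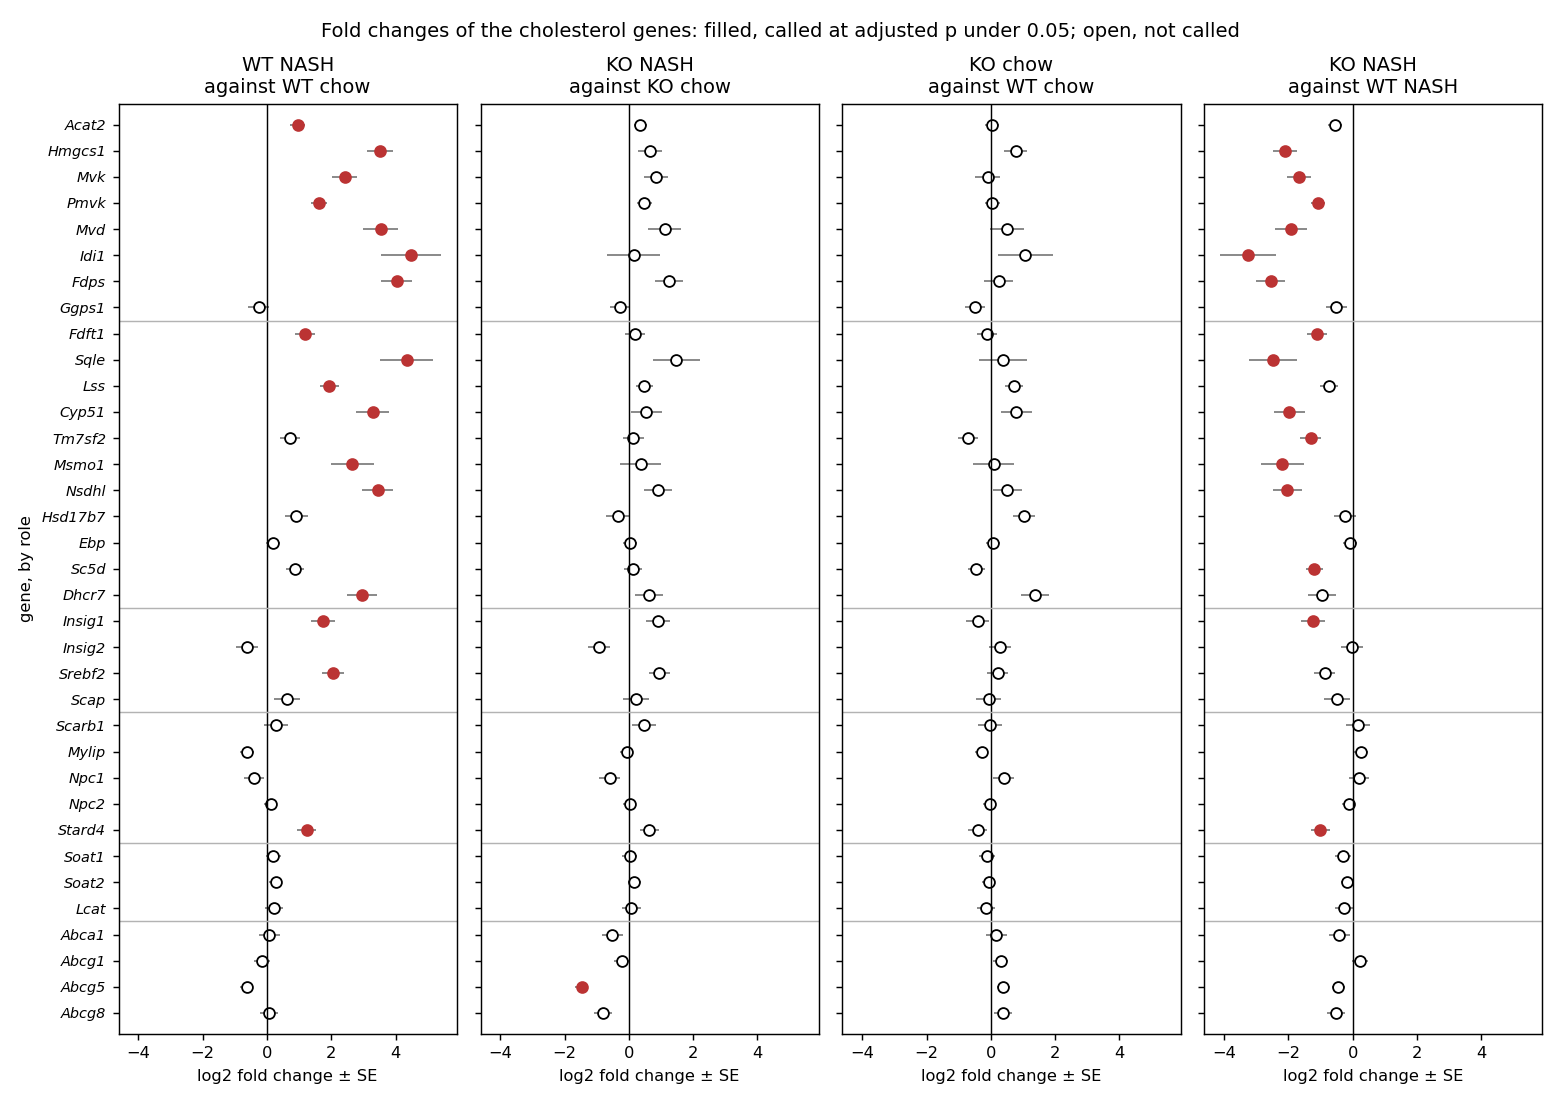
Points are log2 fold changes of the 35 genes with bars of 1 SE, in 4 comparisons, on a common axis; filled points were called at an adjusted p under 0.05. The synthesis genes lie to the right in WT NASH against WT chow and to the left in KO NASH against WT NASH, while 0 genes are filled in KO chow against WT chow and 1 in KO NASH against KO chow.

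Promoter sequence was looked at for the list because most of its synthesis genes moved together. RefSeq windows of 300 bases (250 before to 50 after a gene start, GRCm38.p6) matched 27 of the 35 genes by symbol. The CCAAT box, bound by NF-Y, which cooperates with SREBP-2, was searched as CCAAT on both strands. It was present in the windows of 24 of the 27 genes and of 15 of the 16 synthesis genes among them, against 42.5% of the 10408 tested genes with a window. Among genes with only 1 window it was in 20 of 22, and in 39.1% of the tested genes. The box was not particular to the genes that rose. Ggps1, Tm7sf2, Hsd17b7, Ebp, Sc5d, Insig2, Mylip, Npc2, Soat1, Lcat, Abcg5 and Abcg8 had it and were not called in WT NASH against WT chow. The sterol response element core, searched as TCACNCCAC on both strands, was present in 1 of the 27 (Hmgcs1) and in 1.49% of tested genes. The E-box CACGTG was in 6 of the 27 and in 11.6% of tested genes, and the LXR element, searched as AGGTCA repeated after 4 bases, in 0 of the 27 and 0 of the tested genes. These are matches of letters in a short window. The 250 bases before the start are shown for 4 genes on the forward strand, 5′ to 3′, because Hmgcs1, Idi1 and Nsdhl were among the most raised synthesis genes and Insig1 encodes the sterol-dependent brake. Capitals mark CCAAT on either strand (ATTGG on the strand shown) and the TCACNCCAC match, whose first base in Hmgcs1 is 137 bases before the start. The stretches are chr13:119690101-119690350 for Hmgcs1, chr13:8885356-8885605 for Idi1, chrX:72918271-72918520 for Nsdhl and chr5:28071162-28071411 for Insig1. Hmgcs1 shows 3 CCAAT boxes here, Idi1 and Nsdhl 2 each and Insig1 1.
Hmgcs1: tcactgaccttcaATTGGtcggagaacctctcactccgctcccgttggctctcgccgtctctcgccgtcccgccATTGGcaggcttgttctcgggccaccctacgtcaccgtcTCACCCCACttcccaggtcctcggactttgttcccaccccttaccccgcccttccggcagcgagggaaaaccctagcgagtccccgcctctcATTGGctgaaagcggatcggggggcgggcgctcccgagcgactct
Idi1: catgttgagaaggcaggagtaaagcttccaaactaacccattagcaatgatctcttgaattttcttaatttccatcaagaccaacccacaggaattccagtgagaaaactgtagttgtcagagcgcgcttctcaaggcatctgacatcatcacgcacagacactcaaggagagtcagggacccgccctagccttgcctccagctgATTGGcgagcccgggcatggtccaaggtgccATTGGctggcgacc
Nsdhl: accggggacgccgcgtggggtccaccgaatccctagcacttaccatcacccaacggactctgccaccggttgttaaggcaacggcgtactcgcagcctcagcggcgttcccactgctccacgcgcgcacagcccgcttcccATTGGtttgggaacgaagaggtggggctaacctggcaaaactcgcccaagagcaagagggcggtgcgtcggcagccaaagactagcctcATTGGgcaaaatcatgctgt
Insig1: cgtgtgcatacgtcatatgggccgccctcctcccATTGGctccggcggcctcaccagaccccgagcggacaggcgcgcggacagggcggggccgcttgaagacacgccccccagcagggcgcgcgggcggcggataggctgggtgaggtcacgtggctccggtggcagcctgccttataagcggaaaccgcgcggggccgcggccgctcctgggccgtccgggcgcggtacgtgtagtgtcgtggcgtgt

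Of the control genes Srebf2 and Insig1 rose and Insig2 and Scap were not called. Srebf2 was at 25.7, 23.2, 13, 16.1 and 11.9 CPM in WT chow and at 116, 73.1, 61.4, 29.9 and 88.7 CPM in WT NASH. Its lowest NASH library, replicate 4, was the male of the group and its only library of negative length slope. That library stood just above the highest chow library (log2 fold change of Srebf2 2.04 with an SE of 0.341 and an edgeR adjusted p of 0.00152). Insig1 went from 64.8, 66.4, 83.4, 62.2 and 82.2 CPM to 208, 252, 239, 323 and 165 CPM, with no overlap (edgeR adjusted p = 0.0101, log2 fold change 1.73, SE 0.375). Insig2, the more abundant Insig in every group, was at 451, 448, 655, 863 and 480 CPM in WT chow and at 254, 196, 275, 820 and 323 CPM in WT NASH. Of the 5 NASH libraries 4 lay below all chow libraries and replicate 4 lay among them.

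Stard4, a carrier of sterol between membranes, was the transport gene that rose. It was at 49.5, 49.4, 42.6, 24.2 and 37.9 CPM in WT chow and at 105, 94.7, 98.4, 91.4 and 89.2 CPM in WT NASH, without overlap (log2 fold change 1.23 with an SE of 0.297 and an edgeR adjusted p of 0.0182). Scarb1, the receptor for high-density lipoprotein cholesterol, and Npc1 and Npc2, which export cholesterol from lysosomes, were not called. Mylip, an E3 ligase that degrades lipoprotein receptors, was at 21.5 ± 3.99 and 14.1 ± 3.63 CPM and just missed the threshold (log2 fold change -0.62, edgeR adjusted p = 0.0933).

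Of the 7 genes of esterification and efflux edgeR called 0 in WT NASH against WT chow, and their log2 fold changes ran from -0.63 to 0.27. Soat1, a sterol acyltransferase found in many cell types, was at 4.68, 10.7, 5.57, 8.45 and 4.30 CPM in WT chow and at 6.84, 7.95, 7.81, 8.83 and 7.36 CPM in WT NASH. Soat2, the hepatocyte form, was at 17.9, 14.9, 30.2, 33.8 and 32.5 CPM and at 37.6, 33.3, 31.8, 23.4 and 29.8 CPM. The groups overlapped for both genes. Abcg5, a subunit of the transporter that moves sterols into bile, was at 127 ± 24.0 and 82.4 ± 10.1 CPM and was not called (log2 fold change -0.63, edgeR adjusted p = 0.0775). DESeq2 called 20 genes here, adding Sc5d higher and Abcg5 and Mylip lower to the 17. Abcg5 was also called by edgeR without WT chow replicate 1 (adjusted p = 0.0398) or KO chow replicate 5 (0.0427), and Mylip without WT NASH replicate 4 (0.0404).

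The count varied between fits. It was 11 with sex as a term, 19 with the length slope as a term and 16 with both, of which 11, 17 and 15 were among the 17. Of all genes 1.11, 12.3 and 5.01% were called in these fits. Libraries of positive slope gave 16 calls, where 4.88% of all genes were called. The libraries in that fit were WT chow replicates 1 and 2, read as male, and WT NASH replicates 1, 2, 3 and 5, read as female. Diet and sex cannot be told apart there. By limma voom with quality weights 25 were called (21 higher, 4 lower), where voom called 40.6% of all genes. In male libraries 7 were called and in libraries of negative slope 4, but both fits have the same single WT NASH library, replicate 4, against 5 and 3 WT chow libraries, so that its spread is assumed to be that of the other groups. The log2 fold changes of the 17 ran from 0.78 to 4.28 with sex as a term. Leaving out single libraries ended 2 of the calls. Fdft1 was lost without WT chow replicate 1, 3 or 4 or WT NASH replicate 1, 2 or 5 (edgeR adjusted p 0.053 to 0.0965), and Msmo1 without WT chow replicate 3 or 5 (0.0506 to 0.0621).

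Loss of Pck1 on chow left the list without a called gene. In KO chow against WT chow edgeR called 0 of 35, where 5.53% of all genes tested were called (3.03% higher, 2.49% lower). An unadjusted p under 0.05 was found for 5 of the 35 and for 2795 of all 14440 genes. The median log2 fold change was 0.09 over the list and 0.00 over all genes, and in 0 genes did the groups lie apart, as they did upward in 2.26% and downward in 2.65% of all genes. Dhcr7 and Hsd17b7, both sterol enzymes, came nearest to the threshold. Dhcr7 was at 14.7, 18.0, 4.18, 5.22 and 4.64 CPM in WT chow and at 41.8, 31.5, 25.6, 12.9 and 10 CPM in KO chow (log2 fold change 1.37, edgeR adjusted p = 0.0753). In both groups the libraries of negative length slope were the low ones, and among the libraries of positive slope the KO values were above the WT values. Hsd17b7, a reductase of the sterol branch, was at 37.8 ± 14.0 and 77.0 ± 33.7 CPM (log2 fold change 1.03, edgeR adjusted p = 0.095). DESeq2 called both, limma voom with quality weights called 9 of the list where it called 40.4% of all genes, and leaving out KO chow replicate 5 let edgeR call both (adjusted p of 0.0266 for Dhcr7 and 0.0455 for Hsd17b7). Without WT chow replicate 2 Dhcr7 alone was called (edgeR adjusted p = 0.0313).

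On the NASH diet 13 of the 19 synthesis enzymes were lower in KO than in WT liver. In KO NASH against WT NASH edgeR called 0 genes higher and 15 lower, where 9.65% of all genes were called, 4.9% higher and 4.74% lower. The median log2 fold change was -0.74 over the 35 genes and 0.00 over all genes, and 31 of the 35 were negative. The 5 KO NASH libraries lay below the 5 WT NASH libraries in 12 of the 35 genes, as in 6.44% of all genes, and above them in 0, as in 7.67% of all genes.

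Of the 8 mevalonate genes 6 fell, Acat2 and Ggps1 being the others. Fdps was at 208, 92.1, 81.8, 154 and 136 CPM in WT NASH and at 11.9, 18.1, 61.8, 11.5 and 11.8 CPM in KO NASH. Replicate 3 was the high KO library, and it too lay below the lowest WT library (log2 fold change -2.55 with an SE of 0.455 and an edgeR adjusted p of 0.00178). Hmgcs1, at 705 to 249 CPM in WT NASH, was at 55.0, 85.6, 202, 74.7 and 45.0 CPM in KO NASH (log2 fold change -2.10 with an SE of 0.378 and an edgeR adjusted p of 0.00187). Idi1 had the largest change, with 5.54 ± 6.05 against 53.1 ± 39.9 CPM (edgeR adjusted p = 0.0232, log2 fold change -3.27, SE 0.867). Mvd, Mvk and Pmvk had log2 fold changes of -1.93, -1.67 and -1.08. Groups did not overlap for any of these 6 genes.

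In the sterol branch 7 of 11 genes fell and all 11 had negative log2 fold changes. Nsdhl was at 8.36, 13.3, 34.8, 10.6 and 10.1 CPM in KO NASH, below the 36.3 to 81.5 CPM of WT NASH (log2 fold change -2.04 with an SE of 0.451 and an edgeR adjusted p of 0.00843). Sqle was at 15.1 ± 18.9 CPM against 84.6 ± 31.8 (log2 fold change -2.49, edgeR adjusted p = 0.04), Msmo1 at 48.3 ± 49.0 against 221 ± 156 (-2.19, edgeR adjusted p = 0.0409) and Cyp51 at 49.0 ± 54.8 against 192 ± 74.7 CPM (-1.97, edgeR adjusted p = 0.0168). For these 3 the groups overlapped through KO NASH replicate 3. Tm7sf2, a sterol C14 reductase (log2 fold change -1.31), Sc5d (-1.19) and Fdft1 (-1.10) fell by less. Lss (-0.74, edgeR adjusted p = 0.0961), Dhcr7, Hsd17b7 and Ebp were not called. Dhcr7 was at 30.1, 32, 67.9, 24.7 and 32.3 CPM in KO NASH, of which replicate 3 lay within the WT NASH range of 55.3 to 110 CPM.

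Insig1 and Stard4 fell with the enzymes. Insig1 was at 69.0, 73.3, 185, 105 and 72.2 CPM in KO NASH, and replicate 3 lay above the lowest WT NASH library, 165 CPM (log2 fold change -1.24 with an SE of 0.37 and an edgeR adjusted p of 0.0399). Stard4 was at 32.4, 53.0, 74.2, 48.5 and 29.5 CPM, all below WT NASH (log2 fold change -1.01 with an SE of 0.296 and an edgeR adjusted p of 0.0358). Srebf2 was at 27.5, 38.3, 66.1, 39.4 and 30.2 CPM and was not called (log2 fold change -0.87, edgeR adjusted p = 0.0983). WT NASH replicate 4, at 29.9 CPM, lay within the KO range. It is the only male of its group and also its only library of negative length slope. Insig2, at 514, 235, 300, 346 and 463 CPM in KO NASH, had nearly the same mean as in WT NASH (372 ± 115 and 374 ± 254 CPM) and was not called.

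None of the esterification and efflux genes was called, although Abca1 and Abcg5 had groups that did not overlap. Abca1, which lipidates apolipoprotein A-I, was at 208, 208, 219, 254 and 217 CPM in WT NASH and at 165, 142, 176, 168 and 177 CPM in KO NASH. Abcg1, which passes cholesterol to high-density lipoprotein, was at 9.36, 9.37, 11.4, 8.53 and 10.1 CPM and at 15.3, 10.3, 8.82, 7.47 and 15.1 CPM, with KO libraries on both sides of the WT ones. Soat1 was at 8.53, 6.41, 5.15, 5.03 and 6.26 CPM in KO NASH and Soat2 at 27.4, 25.1, 31.2, 27.6 and 27.8 CPM. Both overlapped with WT NASH.

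**Figure D3:**
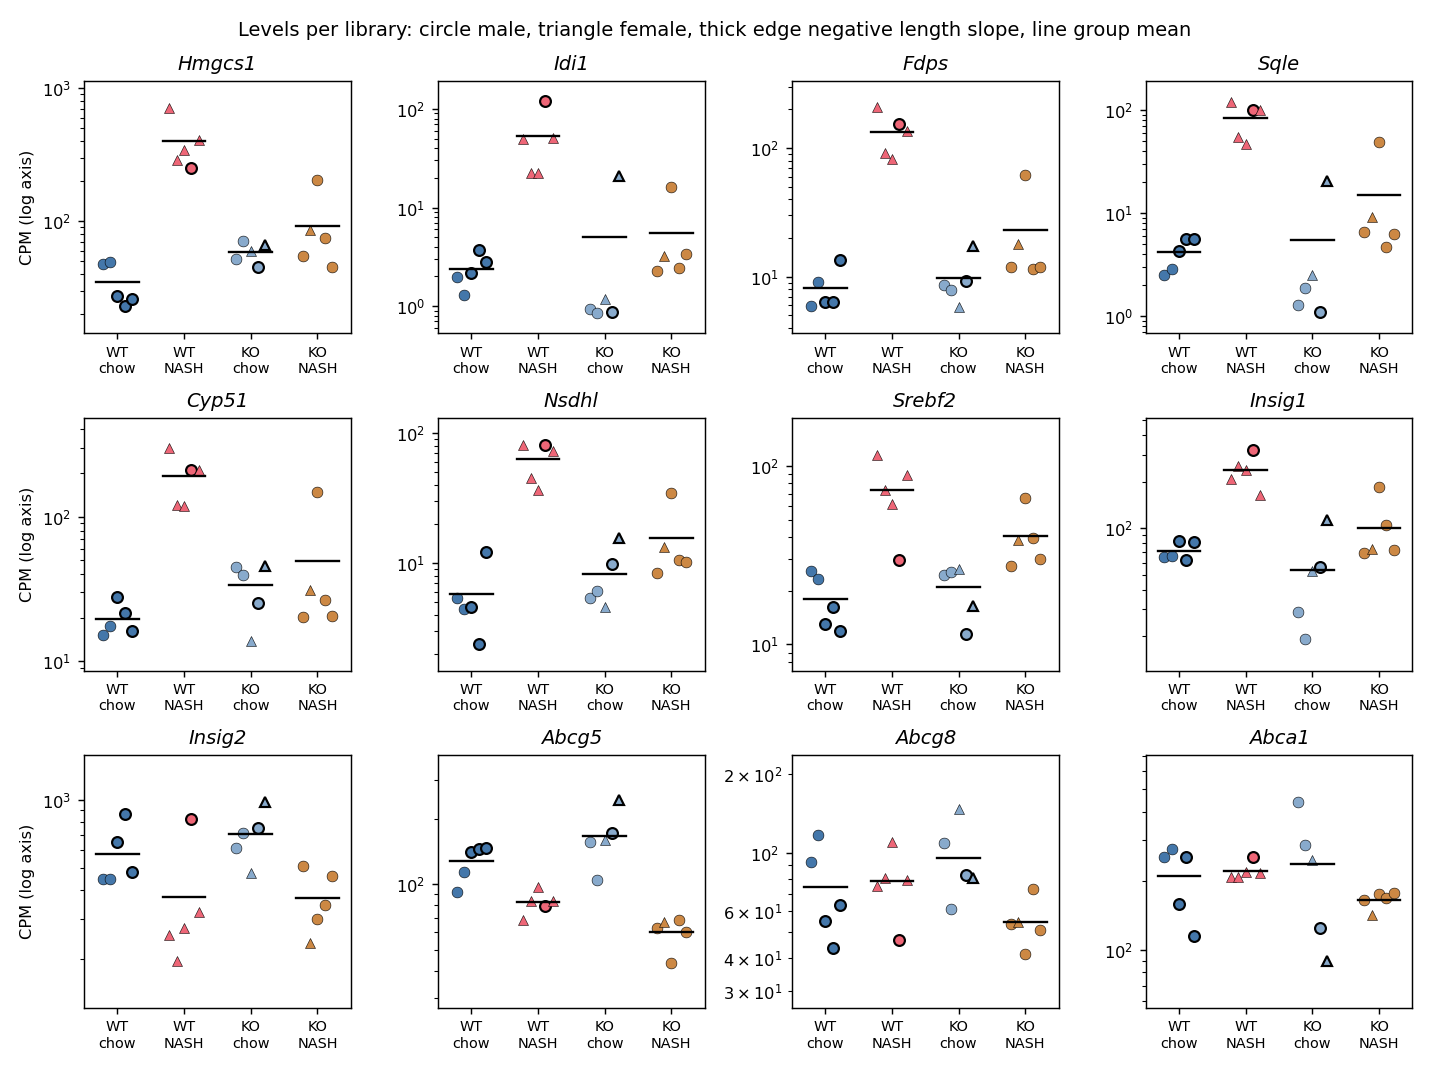
Level of 12 of the genes in each library (CPM on a log axis), by group; circles are libraries read as male, triangles as female, a thick edge marks a negative length slope and the line is the group mean. Hmgcs1 is at 249 to 705 CPM in WT NASH and at 45.0 to 202 CPM in KO NASH, and Abcg5 is at 105 to 244 CPM in KO chow and at 43.3 to 68.2 CPM in KO NASH.

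These 15 genes kept a negative log2 fold change in each alternative fit, while the number called did not hold. With sex as a term 5 stayed called (Cyp51, Fdps, Hmgcs1, Nsdhl and Pmvk), with log2 fold changes of the 15 from -3.11 to -0.67. In that fit 4.33% of all genes were called. With the length slope as a term 20 genes were called (where 16.5% of all genes were), with sex and slope 9 (10.5%), and by limma voom 21 (23.8%). Males alone (4 KO against 1 WT) and females alone (1 KO against 4 WT) leave 1 library in a group. The WT male, replicate 4, is also the only NASH library of negative length slope, so among males genotype and slope cannot be told apart. For both subsets only effect sizes are given. The 15 ranged from -4.28 to -0.76 in males and from -3.46 to -0.78 in females, where the lone library of a group is assumed to vary like the others. Among libraries of positive length slope only, which drop the WT NASH male, 19 were called, where 20.3% of all genes were. It was 7 (5.23% of all genes) when KO NASH replicates 1 and 5 were added up as a single sample. The count was 8, 9, 9 and 7 without KO NASH replicates 1, 2, 4 and 5 and 16 without replicate 3. Of all genes 5.38, 7.7, 7.9, 4.89 and 5.71% were called in these fits, in the same order. Fdps, Hmgcs1, Mvk, Pmvk, Nsdhl, Sc5d and Tm7sf2 were called without any single library. The call was lost for Cyp51 without KO NASH replicate 5 (edgeR adjusted p = 0.0518) and for Mvd without KO NASH replicate 1 or 5 (up to 0.0632). For Idi1, Fdft1, Insig1, Msmo1, Sqle and Stard4 it was lost without any of KO NASH replicates 1, 2, 4 and 5, with edgeR adjusted p up to 0.131. The WT NASH libraries whose absence ended a call were replicate 4 for Idi1, 1 and 5 for Fdft1, 2, 3 and 4 for Insig1, 2, 4 and 5 for Msmo1, 1, 2, 4 and 5 for Sqle and each of the 5 for Stard4, and Msmo1 was also lost without WT chow replicate 3. Lss was called without KO NASH replicate 3 (edgeR adjusted p = 0.0318) and Srebf2 without WT NASH replicate 4 (0.0337).

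In KO liver the transporter gene Abcg5 was lower on the NASH diet than on chow. In KO NASH against KO chow edgeR called 1 gene, Abcg5, which was lower, where 3.29% of all genes were called, 1.77% higher and 1.52% lower. The median log2 fold change was 0.19 over the list and -0.02 over all genes. The 5 KO NASH libraries lay above the 5 KO chow libraries in Pmvk and Srebf2 and below them in Abcg5, 2 and 1 of 35 genes, as in 4.19% and 4.31% of all genes. Among the 19 synthesis enzymes 0 were called by edgeR, 17 of them had positive log2 fold changes, and the values ran from -0.35 to 1.47. KO chow replicate 5 and KO NASH replicate 3 weighed on these values. Without KO chow replicate 5 Sqle was called (3.11 in place of 1.47, edgeR adjusted p = 0.0193), Idi1 was at 2.49 in place of 0.15 (edgeR adjusted p = 0.052) and Msmo1 at 1.49 in place of 0.37 (edgeR adjusted p = 0.173). Without KO NASH replicate 3 the 3 genes were at 0.30, -0.80 and -0.50, none of them called by edgeR. Hmgcs1 was at 51.9, 71.4, 60.0, 44.9 and 66.0 CPM in KO chow, overlapping with its 45.0 to 202 CPM in KO NASH. Fdps was at 8.66, 7.84, 5.79, 9.29 and 17.3 CPM in KO chow, and only replicate 5 reached the range of KO NASH. Insig1, at 28.8, 19.2, 52.9, 56.6 and 113 CPM in KO chow, reached the KO NASH range in replicate 5 alone, and Insig2 was at 611, 711, 476, 749 and 978 CPM. More genes were called in other fits, 4 with the length slope as a term, 8 with sex and slope, 9 among libraries of positive slope and 12 by limma voom with quality weights. The shares of all genes called there were 6.36, 9.37, 7.69 and 12.7%. In the same order 1, 3, 5 and 7 of the calls were higher and 3, 5, 4 and 5 lower. Insig1 was called higher in each of these 4 fits and Sqle in the last 3.

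Abcg5 and Abcg8 encode the subunits of 1 sterol transporter and overlap on opposite strands of chromosome 17 (GRCm38.p6, chr17:84658174-84683011 and chr17:84676302-84700333). Abcg5 was at 91.8, 114, 140, 145 and 147 CPM in WT chow, at 68.4, 83.9, 96.6, 79.6 and 83.6 CPM in WT NASH and at 156, 105, 159, 172 and 244 CPM in KO chow. In KO NASH it was at 62.8, 66.9, 43.3, 68.2 and 60.1 CPM, the lowest of the 4 groups. The diet difference of Abcg5 in WT was -0.63 and not called (edgeR adjusted p = 0.0775). Its diet differences in KO and WT were not called unlike by the interaction test described below (log2 -0.84, edgeR adjusted p = 0.346). The fall from KO chow was -1.47 on the log2 scale (SE 0.211, edgeR adjusted p = 0.00191), and it was called with a term for sex (-1.40), for length slope (-1.28) or for both (-1.21), among males only (-1.31, edgeR adjusted p = 0.0478) and without any single library. In females alone it was -1.57 and not called (edgeR adjusted p = 0.582). Abcg8 was at 109, 61.3, 147, 82.3 and 80.5 CPM in KO chow and at 53.6, 54.7, 41.3, 72.8 and 50.9 CPM in KO NASH, where 1 KO chow library lay among the KO NASH ones, and edgeR did not call it. DESeq2 called it. In WT chow Abcg8 was at 92.5, 117, 55.1, 43.7 and 63.5 CPM and in WT NASH at 74.8, 80.7, 110, 46.9 and 79.0 CPM. Abca1 was at 253, 274, 158, 255 and 115 CPM in WT chow and at 440, 286, 247, 125 and 89.7 CPM in KO chow, and replicate 5, of negative length slope, was the lowest in both groups. Abcg1 was at 5.80, 11.7, 10, 16.2 and 10.3 CPM in WT chow and at 11.5, 13, 12.8, 17.4 and 12.2 CPM in KO chow. Summed over the 4 transporters, KO NASH libraries were at 269 to 316 CPM, below the 335 to 517 CPM of WT chow, the 360 to 437 CPM of WT NASH and the 397 to 716 CPM of KO chow. Abca1, Abcg5 and Abcg8 weigh most in this sum, with KO NASH means of 165, 60.3 and 54.7 CPM. Abcg1 had a KO NASH mean of 11.4 CPM, against 10.8 in WT chow, 9.74 in WT NASH and 13.4 in KO chow.

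Whether the genotype difference changed with the diet was tested as an interaction, that is, KO less WT under NASH feeding, minus KO less WT under chow. Hmgcs1 was called (log2 -2.87, SE 0.525, edgeR adjusted p = 0.0348), and it was 1 of 35, where 0.139% of all genes were called, 0.0554% with a positive and 0.0831% with a negative value. Of the 35 genes 17 had an unadjusted p under 0.05, as had 1191 of all 14440 genes. In the list 33 were negative, and the median was -0.83 over the list and -0.03 over all genes. All 19 synthesis enzymes were negative, from -4.34 (Idi1) to -0.02. Without KO chow replicate 5 Idi1 was at -1.98, Sqle at -1.22 and Msmo1 at -1.15, and without KO NASH replicate 3 they were at -5.29, -4.06 and -3.16. Fdps just missed the threshold (log2 -2.79, edgeR adjusted p = 0.09) and was called without KO NASH replicate 3 (0.00123) or WT NASH replicate 4 (0.0466). DESeq2 called 8 (Cyp51, Dhcr7, Fdps, Hmgcs1, Idi1, Lss, Mvd and Nsdhl), and with the length slope as a term edgeR called 6. Of all genes 1.31 and 1.32% were called in these fits. The Hmgcs1 call was lost with sex as a term (log2 -2.59, edgeR adjusted p = 0.283), in males alone (-2.08, edgeR adjusted p = 0.318), and without any 1 of 12 libraries (edgeR adjusted p up to 0.0871), namely WT chow replicates 2, 3 and 5, WT NASH replicates 1, 2, 3 and 5, KO chow replicates 3 and 5 and KO NASH replicates 1, 4 and 5. Without KO NASH replicate 3 the count was 4, and without WT NASH replicate 4 it was 2.

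Most synthesis enzymes, 15 of 19, varied together over the 20 libraries, among which KO NASH replicate 3 and KO chow replicate 5 stood farthest from their groups. The mean over the 19 of log2(CPM + 0.5), set relative to WT chow, was -0.18 to 0.16 in WT chow and 2.60, 1.86, 1.80, 2.34 and 2.24 in WT NASH replicates 1 to 5. In KO chow 4 libraries were at -0.09 to 0.03 and replicate 5 at 0.86, and in KO NASH 4 were at 0.17 to 0.59 and replicate 3 at 1.75. KO NASH replicate 3 thus stood just below the lowest WT NASH library. The summed level of the 19 enzymes spanned 664 to 835 CPM (WT chow), 1750 to 2960 CPM (WT NASH), 626 to 915 CPM (KO chow) and 556 to 1630 CPM (KO NASH). As a description over the 20 libraries, after removing group means, the correlation of a gene with the mean of the other synthesis genes was 0.54 to 0.93 for 15 of the 19 enzymes and 0.09 to 0.22 for Dhcr7, Ggps1, Hsd17b7 and Ebp. It was 0.93 for Fdps, 0.84 for Sqle, 0.83 for Fdft1, 0.82 for Nsdhl, 0.67 for Stard4 and 0.65 for Insig1. For Srebf2 it was 0.29, and -0.36 to -0.14 for the 4 efflux genes. These points share library depth and the length slope. The correlations were not taken without KO NASH replicate 3 and KO chow replicate 5, nor for genes outside the lists. How far they hold among the other libraries was not tested.

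**Figure D4:**
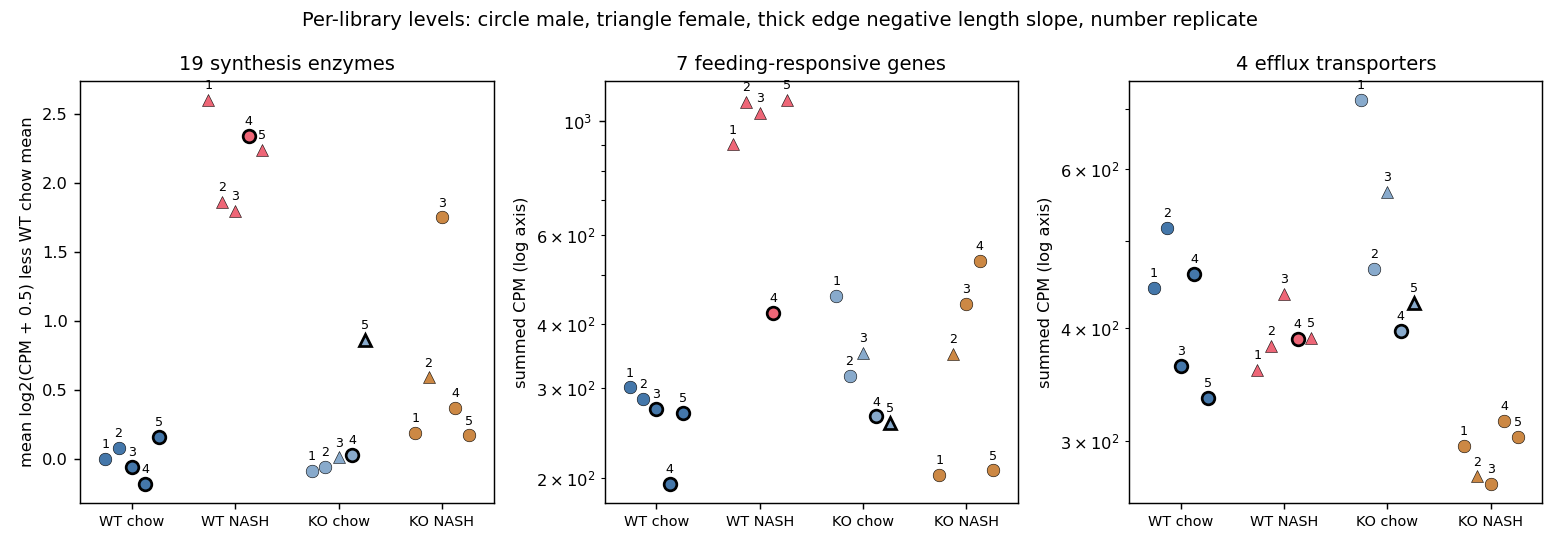
Per library, the mean log2(CPM + 0.5) of the 19 synthesis enzymes less the WT chow mean, the summed CPM of 7 feeding-responsive genes and the summed CPM of the 4 efflux transporters, the sums on log axes; circles are libraries read as male, triangles as female, a thick edge marks a negative length slope and numbers are replicates. The 5 WT NASH libraries are at 1.80 to 2.60 on the synthesis scale and KO NASH replicate 3 is at 1.75, while the efflux sum is lowest in KO NASH.

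Genes of related steps were counted from a list of 29, all tested. Of these 13.8% were called in WT NASH against WT chow (5.93% of all genes), 10.3% in KO chow against WT chow (5.53%), 10.3% in KO NASH against WT NASH (9.65%) and 6.9% in KO NASH against KO chow (3.29%), which are 4, 3, 3 and 2 genes. Srebf1, which encodes the lipogenic SREBP-1, was higher in WT NASH than in WT chow (log2 fold change 2.61) and lower in KO NASH than in WT NASH (-0.97). The second difference was at -0.56 with sex as a term and not called by edgeR. In males it was at 0.03, where the single WT NASH library is also the only NASH library of negative length slope. The call of this difference was lost without any of 9 libraries (WT chow replicate 1, WT NASH replicates 1, 2, 3 and 5, and KO NASH replicates 1, 3, 4 and 5). Nceh1, a cholesteryl ester hydrolase, was lower in WT NASH than in WT chow (-0.96), a call lost without WT chow replicate 3 or 4 or WT NASH replicate 1, 2, 3 or 5 (edgeR adjusted p up to 0.0731). It was higher in KO than in WT on chow (1.25) and on the NASH diet (1.39), and both differences were called whichever single library was left out.

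Vldlr, a lipoprotein receptor gene, was called higher in WT NASH and in KO chow than in WT chow (3.49 and 4.07). It was at 1.18, 0.542, 1.49, 0.95 and 0.554 CPM in WT chow and at 8.39, 20.3, 13.9, 0 and 8.52 CPM in WT NASH. The library at 0 was the male and the only one of its group with a negative length slope. In KO chow Vldlr was at 5.33, 4.87, 30.3, 10.6 and 26.8 CPM, the females being the 2 highest. With sex as a term the difference of WT NASH from WT chow was 1.26 and not called (edgeR adjusted p = 0.472). Lpcat3, a phospholipid acyltransferase and LXR target, was lower on the NASH diet in WT (-0.63, and -0.54 with an edgeR adjusted p of 0.192 with sex as a term) and in KO (-0.69, lost without KO NASH replicate 2). Lipa, the lysosomal acid lipase, was lower in KO NASH than in KO chow (-1.13, lost without KO NASH replicate 1 or 5). Pdss1, of ubiquinone side chain synthesis, was higher in KO chow than in WT chow (1.27), and Rnf145, a ubiquitin ligase of the sterol pathway, in KO NASH than in WT NASH (0.60). Pdss1 lost its call without KO chow replicate 1, 2 or 4, any of WT chow replicates 1 to 4, or replicate 5 of either NASH group (edgeR adjusted p up to 0.102). Rnf145 lost it without any of WT NASH replicates 1 to 4 and KO NASH replicates 1, 2, 3 and 5 (up to 0.0945). The genes of LXR itself, Nr1h2 and Nr1h3, and of the proteases that cleave SREBPs, Mbtps1 and Mbtps2, were not called in any of the 5 tests.

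Other measured states also differed between the groups, and their part in the result was not tested. Among 7 feeding-responsive genes, Fasn (3.36), Acaca (1.46), Acly (1.74) and Pnpla3 (2.58), which serve lipid synthesis and storage, were higher in WT NASH against WT chow. Fasn (-2.68), Acly (-1.20), Pnpla3 (-3.57) and Elovl6 (-1.29) were lower in KO NASH against WT NASH. The sum of the 7 spanned 195 to 301 CPM (WT chow), 422 to 1100 CPM (WT NASH), 256 to 455 CPM (KO chow) and 203 to 533 CPM (KO NASH). WT NASH replicate 4 was the male and the only library of negative length slope in its group. There this sum was the lowest of the group, at 422 CPM, while the synthesis value was 2.34, the second highest. KO chow replicate 5, the highest of its group in synthesis (0.86), had the lowest feeding sum, 256 CPM. KO NASH replicate 3, the highest of its group in synthesis (1.75), was at 439 CPM, below replicate 4 at 533 CPM (synthesis 0.37) and above the others. Among 8 fasting-responsive genes 7 had negative values in WT NASH against WT chow, where edgeR called 0. In KO NASH against WT NASH 7 had positive values and 1 was called higher. The sum of the 8 spanned 4390 to 7390 CPM (WT chow), 1640 to 4900 CPM (WT NASH), 7040 to 10200 CPM (KO chow) and 4680 to 6250 CPM (KO NASH). Of 12 clock genes Arntl (2.74) and Npas2 (4.14) were higher in WT NASH against WT chow, and in KO NASH against WT NASH Arntl (-1.42) was lower and Dbp (1.92) and Ciart (1.79) were higher. Among 10 hepatocyte markers 0 were called in WT NASH against WT chow by edgeR and 1, Serpina1a, was lower in KO NASH against WT NASH. The hepatocyte sum was 61300 to 107000 CPM in WT NASH and 65300 to 77700 in KO NASH. Of 12 macrophage markers Gpnmb (4.25) was higher and Timd4 (-1.42) lower in KO NASH against WT NASH, with sums of 505 to 1350 CPM in WT NASH and 402 to 564 in KO NASH. Of 6 endothelial markers Lyve1 (1.62) and Kdr (0.66) were higher in that comparison, with sums of 162 to 248 CPM in WT NASH and 202 to 324 in KO NASH. Of 7 lymphocyte markers Cd3e (2.15) was higher in WT NASH against WT chow and Cd3g (-1.82) lower in KO NASH against WT NASH, where all 7 had negative values. The lymphocyte sums were 8.78 ± 3.23 CPM in WT chow, 11.5 ± 2.59 CPM in WT NASH, with 9.32 CPM as the lowest library, and 6.28 ± 2.28 CPM in KO NASH, with 9.49 CPM as the highest. The macrophage marker Cd68 (1.01) was higher in WT NASH against WT chow. Of 5 red blood cell genes Hbb-bs (-2.31) and Hbb-bt (-2.16) were lower in WT NASH against WT chow and all 5 had negative values, with sums of 81.4 to 245 CPM in WT chow and 25.0 to 179 in WT NASH. Of 5 adipose markers 1, Cfd, passed the filter and was higher (10.18), with sums of 0.452 to 0.969 CPM in WT NASH and 3.59 to 54.5 in KO NASH, while Lep was at 0 in all 20 libraries. Of 6 pancreas markers 1, Cela1, passed the filter and was lower (-3.16), with sums of 11.7 to 107 CPM in WT NASH and 3.41 to 4.45 in KO NASH, while Prss1 and Amy2a5 were at 0 in all 20.

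Some of the genes share exonic bases with neighbours, so part of their counts is uncertain. Fdft1 shares 774 exonic bases, 18.3% of its length, with Ctsb on the opposite strand, which had a mean of 10500 counts against 881 for Fdft1. Whether the counting used the strand is not given in the sources used here. On the same strand, Fdps shares 26.7% of its length with Gm43738 and Tm7sf2 12.1% with Vps51. Abcg5 and Abcg8 share 82 exonic bases on opposite strands. Acat2 has a close paralog, Acat3, with which it may share reads.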

How the data were processed

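The authors deposited a table of raw counts per gene for the 20 libraries, whole numbers that were not normalized. RNA was extracted with Trizol and had an RNA integrity number above 8, per the labels' protocols. HISAT2 2.0.4 and GRCm38 are named per the submitters' processing notes, while no source used here names the counting program, the annotation or the use of strand. The table's columns are headed CD or HFD with genotype and mouse number. CD was read as the chow diet and HFD as the NASH diet, a reading that the labels do not spell out. No column was left unused.

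Genes were kept by filterByExpr of edgeR 4.0.16 (minimum count 10), which left 14440 genes with 99.91% of the counts. One quasi-likelihood model with TMM scaling held the 4 groups of 20 libraries (common biological coefficient of variation 39%), without covariates. P-values were adjusted over all genes by Benjamini and Hochberg, and a gene was called at an adjusted p under 0.05. Standard errors were taken from the fold change and its F statistic. DESeq2 1.42.0 and limma 3.58.1 (voom) served as alternatives, in R 4.3.3, as did other scaling and filters, sex, the length slope, a replicate block and leaving out libraries. The subsets of female libraries and of libraries by length slope were added after seeing the data. The code was tested on simulated counts. Exonic lengths were those of GENCODE M21, and positions and promoters those of RefSeq for GRCm38.p6. Sex was read from counts over 4 Y-linked genes (100 or more for a male). The length slope was fitted per library over 9518 genes, on deviations from each gene's mean over the 20 libraries.

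The members and lists were chosen with earlier results of these data known. Every member called was named, values in every library were given for the called member of smallest p per role and comparison and for the pairs Insig1 and Insig2, Soat1 and Soat2, Abcg5 and Abcg8, and Abca1 and Abcg1, and of the related steps at most 4 called genes per comparison were named. Dhcr7 was given in every library after its values were seen. The labels give separate mice as replicates. The single-gene result of 1 of the feeding-responsive genes is not reported here.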

Additional observations from a re-analysis of the deposited data

Results flagged for a closer look

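In 29 of the 140 sets of 5 libraries formed by 35 genes and 4 groups, 1 library stood apart from the other 4 by Dixon's criterion (gap over range above 0.71). The usual rate of about 1 in 20 sets assumes normal values and independent sets. The CPM were not log-transformed and the sets share libraries, so the 29 cannot be held against that rate. Of the 29, 12 were KO NASH replicate 3, always as the highest library. Its levels, with the next highest library in brackets, were 202 CPM for Hmgcs1 (85.6), 8.44 for Mvk (4.70), 7.45 for Mvd (2.56), 16.3 for Idi1 (3.40), 61.8 for Fdps (18.1) and 48.7 for Sqle (9.10). They were 45.4 CPM for Lss (24.3), 147 for Cyp51 (31.3), 136 for Msmo1 (27.6), 34.8 for Nsdhl (13.3), 112 for Hsd17b7 (52.1) and 67.9 for Dhcr7 (32.3). KO chow replicate 5 was the highest of its group in 4 enzymes, at 3.52 CPM for Mvd (1.31), 21.1 for Idi1 (1.19), 20.5 for Sqle (2.52) and 119 for Msmo1 (25.3).

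WT NASH replicate 4 was the male of its group and its only library of negative length slope. It was highest for Ggps1 at 34.1 CPM (15.7), Msmo1 at 491 (191), Insig2 at 820 (323) and Abca1 at 254 (219), and lowest for Npc1 at 91.7 (137) and Lcat at 164 (338). WT NASH replicate 1 was highest for Mvd at 20.3 CPM (12.1) and Ebp at 198 (174). KO chow replicate 4 was highest for Acat2 at 25.0 CPM (18.1) and Abcg1 at 17.4 (13). WT chow replicate 4 was lowest for Mvd at 0.095 CPM (1.11) and highest for Ggps1 at 33.9 (20), and KO chow replicate 2 was lowest for Pmvk at 6.59 CPM (7.74).

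The diet difference of Hmgcs1 was smaller in KO than in WT by the interaction test, at log2 -2.87 (edgeR adjusted p = 0.0348).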

How the results depend on the processing

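The members called in the 4-group model kept their sign under every alternative run. The counts of calls moved as given below, and the cause was not tested. The share of all genes called moved too. In the order of the comparisons below it was 5.93, 5.53, 9.65, 3.29 and 0.139% in the 4-group model. With sex it was 1.11, 5.84, 4.33, 3.98 and 0.0277%, and by voom 40.6, 40.4, 23.8, 12.7 and 13.5%. In libraries of positive slope all WT chow libraries were read as male and all WT NASH libraries as female. In WT NASH against WT chow (17) calls numbered 11 after adding sex, 7 in males and 4 in libraries of negative slope (1 WT NASH library in both), 16 with sex and slope, 19 with the slope, 16 in libraries of positive slope, 20 by DESeq2, 25 by voom, and 15 to 19 with a library left out. In KO chow against WT chow (0) it was 2 by DESeq2, 9 by voom, 1 each with the slope, with sex and slope and with the replicate block, and 0 to 2 with a library left out. In KO NASH against WT NASH (15) it was 5 with sex, 9 with sex and slope, 7 with KO NASH replicates 1 and 5 summed, and 7 to 16 with a library left out. Males hold 1 WT NASH library and females 1 KO NASH library, so counts are left out for both. In KO NASH against KO chow (1) it was 2 by DESeq2, 12 by voom, 2 with sex, 4 with the slope, 8 with both, 9 in libraries of positive slope, and 1 to 2 with a library left out. For the interaction (1) it was 8 by DESeq2, 12 by voom, 6 with the slope and 2 with sex and slope. It was 0 by edgeR with sex, with the replicate block, with the 2 libraries summed and in libraries of positive slope, and 0 to 4 with a library left out. At an unadjusted p under 0.05 the fits with 0 calls had, in that order, 9, 17, 14 and 13. The number of all genes under 0.05 was not taken for these fits. In males, where WT NASH has 1 library, Hmgcs1 was at log2 -2.08. Srebf2 in KO NASH against WT NASH reversed in males alone (log2 0.48), where WT NASH has 1 library, also the only NASH library of negative length slope. Whether shared replicate numbers pair the mice was not settled. Correlations of same-numbered libraries ran from -0.41 to 0.52, 13 of 30 were over 0.1, and 6 of 20 libraries correlated best with one of their own number. The correlations of libraries of unlike number were not set beside them. With the replicate block the Hmgcs1 interaction was -2.95 (edgeR adjusted p = 0.0567), and the count in WT NASH against WT chow was 18. Sex and group overlap only in part, and the lowest-count member, Mvd, went down to 1 count.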
